A study of Mus musculus with 50 samples.

Results

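Ribosomal protein genes and the genes that lie opposite them on the other strand of DNA were followed across RNA libraries of J1 mouse embryonic stem (ES) cells. The members were chosen by name and by position: 85 genes whose GENCODE name is Rpl or Rps with a digit, or Rplp0, Rplp1, Rplp2 or Rpsa, and the 13 genes whose exons overlap theirs by at least 50 bases on the other strand, so 98 of the 37310 genes in the count tables. The name rule also takes in a few relatives of the core ribosomal proteins, such as Rpl7l1, Rpl22l1, Rps27l and the binding protein Rps19bp1. It left out 152 pseudogenes and 10 Rps6k kinase genes. The J1 line, of the strain 129S4/SvJae, was untreated and was grown in all groups on gelatin in serum with the cytokine LIF. Wild type cells (WT) were compared with KO1 and KO2, both of the genotype NSD1-/-, with 2 RNA libraries per group. The labels do not say how KO1 and KO2 were made, whether each is 1 clone, or whether libraries of the same group are separate cultures. The p-values therefore measure no more than the spread between these libraries, and that spread may be technical. NSD1 is a methyltransferase for lysine 36 of histone H3, and the comparison asks which genes change without it.

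A ribosome has a large and a small subunit, each built of ribosomal RNA and of proteins that are named Rpl in the large and Rps in the small one. Their mRNAs are among the most abundant in dividing cells, and many begin with an unbroken run of pyrimidines, the TOP motif, through which mTORC1 signalling controls their translation. The genes are short, many carry a small nucleolar RNA (snoRNA) in an intron, and several share exon sequence with a neighbour transcribed the other way.

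Library totals ran from 1150089 to 1285487 counted fragments, of which the locus AY036118 held 32.3% to 37.2%. Nsd1 had 21 and 25 counts in WT, 55 and 38 in KO1, and 27 and 21 in KO2. These counts, like all others here, are read as coming from the other strand than the gene itself, so they do not check the loss of NSD1. By the symbol of the counted gene, the 10 ES cell markers held 344 to 378 counts per library in sum and none was at 0. Read by the gene opposite, that list has 1 gene, Gm17232 (opposite Tdh, a threonine dehydrogenase gene of ES cells), with 4428 and 4750 counts in WT, 2206 and 2045 in KO1, and 5421 and 5888 in KO2, which fell in KO1 by 1.18 in log2 and rose in KO2 by 0.29 (adjusted p 2.99e-17 and 3.53e-05, edgeR). Of the 8 fibroblast markers, Col1a2, Col3a1 and Thy1 were at 0 in every library and the list held 74 to 100 counts in sum. The 5 endoderm markers held 0 or 1 counts per library in sum. Of 4 neuroectoderm markers 3 were found, none at 0, with 167 to 223 counts per library in sum. Counts on a marker list therefore do not single out ES cells. Of the 4 genes opposite fibroblast markers, edgeR called 2 lower and 0 higher in each line against WT, and the others were not called. Of all tested genes with an opposite gene, it called 15.5% in KO1 and 13.9% in KO2. Gm17329 (opposite Col1a1) was at 74.1 CPM in WT, 2.87 in KO1 and 2.19 in KO2, and Syn3 (opposite Timp3) at 74.0, 14.4 and 10.2 CPM. The 4 genes together summed to 1506 and 1611 counts in WT, 1519 and 1558 in KO1, and 1339 and 1497 in KO2. CPM is the count scaled to 1000000 fragments of the effective library size, which is the total scaled by the TMM factor. The part of these markers in the results below was not tested.

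The tables were counted with a strand setting under which a fragment goes to a gene if its first read has the gene's own orientation. Counted in that way, the ribosomal protein genes held few counts: all 85 together had 2345 and 2578 in WT, 2437 and 2562 in KO1, and 2725 and 2704 in KO2, which is 0.195% to 0.237% of each library. The 13 genes opposite had 20238 and 19697 in WT, 17769 and 18111 in KO1, and 24681 and 26077 in KO2. That is 1.52% to 2.15% of each library. In 9 of the 13 pairs the gene opposite had more counts than the ribosomal protein gene in every library, and in 4 pairs (Rpl18/Sphk2, Rps28/Kank3, Rps10/Gm15420 and Rps18/Vps52) the ribosomal protein gene had more in every library. The counts of a gene opposite are therefore read here as fragments from the strand of the ribosomal protein mRNA, in so far as they lie in the shared exons. The tables give a count per gene and do not tell where in a gene its fragments lie.

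The pairs lie on 9 chromosomes of the mm9 build and come in 3 arrangements. In 6 pairs the genes meet tail to tail, in 6 head to head, and Rpl35 lies inside the span of Wdr38. The overlaps run from 56 bases (Rpl12/Lrsam1) and 60 bases (Rps10/Gm15420), just inside the limit, to 953 bases (Rpl5/Fam69a). Rps2 and Snhg9 share 14 bases and fall outside it. Both strands are shown across a border of the overlap for the 2 pairs with the most counts, since the same bases are exon in both genes and the strand alone decides which gene a fragment is counted for. Capitals mark the bases that are exonic in both genes, and the lower-case bases are exonic in the gene opposite only. The Rpl23a border (chr11:77994711-77994740, Rpl23a on the minus strand) is the start of an Rpl23a exon, and the Rpl35 border (chr2:38860589-38860618, Rpl35 on the minus strand) is the end of an Rpl35 exon.
Rpl23a strand: tccttctccacacagGCCCGACGGAGAGAA
Tlcd1 strand: TTCTCTCCGTCGGGCctgtgtggagaagga
Rpl35 strand: AACAACGCCGAAATGgtgaggctgcgggaa
Wdr38 strand: ttcccgcagcctcacCATTTCGGCGTTGTT

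Rpl23a, a large subunit protein at the exit of the peptide tunnel, spans chr11:77994434-77997086 on the minus strand, and Tlcd1, which encodes a TLC domain membrane protein, spans chr11:77990213-77995411 on the plus strand. They share 506 bases in 2 blocks, 59.7% of the Rpl23a exon bases: 259 are coding in Rpl23a, and all 506 lie in untranslated exon sequence of Tlcd1. Tlcd1 also lies opposite the snoRNA genes Snord42a and Snord4a. Tlcd1 had 13410 and 12650 counts in WT, 11382 and 11699 in KO1, and 17681 and 18509 in KO2. Its KO2 libraries were the highest and its KO1 libraries the lowest, with no overlap between any of the groups. Rpl23a had 33 and 33, 29 and 40, and 45 and 46 counts in the same order, so over all libraries 0.264% of the fragments of the pair were counted on the Rpl23a side (Wilson 95% interval 0.232% to 0.301%). Such intervals cover counting error only.

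Rpl35, also a large subunit protein by the tunnel exit, spans chr2:38857100-38861144 on the minus strand within Wdr38, a WD repeat gene at chr2:38852996-38861688 on the plus strand. Their 821 shared bases in 4 blocks make up 66.2% of the Rpl35 exon bases. In Wdr38, 818 of them are noncoding and exonic only through transcripts not annotated as protein coding. Wdr38 had 4945 and 5188 counts in WT, 4754 and 4938 in KO1, and 5280 and 5692 in KO2. Both KO2 libraries were above the 4 others in raw counts, while KO1 and WT nearly met. Rpl35 had 21 to 30 counts per library, 0.491% of the pair (0.419% to 0.575%).

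The next 3 pairs by count share only untranslated exon sequence. Rpl31 and Tbc1d8, a TBC domain gene, meet tail to tail over 410 bases of chromosome 1, and Tbc1d8 had 604 and 608 counts in WT, 516 and 449 in KO1, and 491 and 549 in KO2. Rpl5, which carries the 5S ribosomal RNA into the large subunit together with Rpl11, meets Fam69a tail to tail on chromosome 5. Fam69a had 400 and 416 counts in WT, 327 and 322 in KO1, and 428 and 479 in KO2. Rpl15, a large subunit protein, and Nkiras1, a Ras-like inhibitor of NF-kappaB signalling, meet head to head over 105 bases of chromosome 14. Nkiras1 had 283 and 280 counts in WT, 202 and 204 in KO1, and 323 and 315 in KO2. Both KO1 libraries lay below both WT libraries in all 3 genes, and both KO2 libraries lay above WT in Fam69a and Nkiras1 and below it in Tbc1d8. Nkiras1 also lies opposite Ube2e1, so its fragments need not all come from the Rpl15 strand. The Rpl31, Rpl5 and Rpl15 sides held 20 to 37 counts per library, 4.88%, 6.17% and 9.21% of their pairs.

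**Figure D1:**
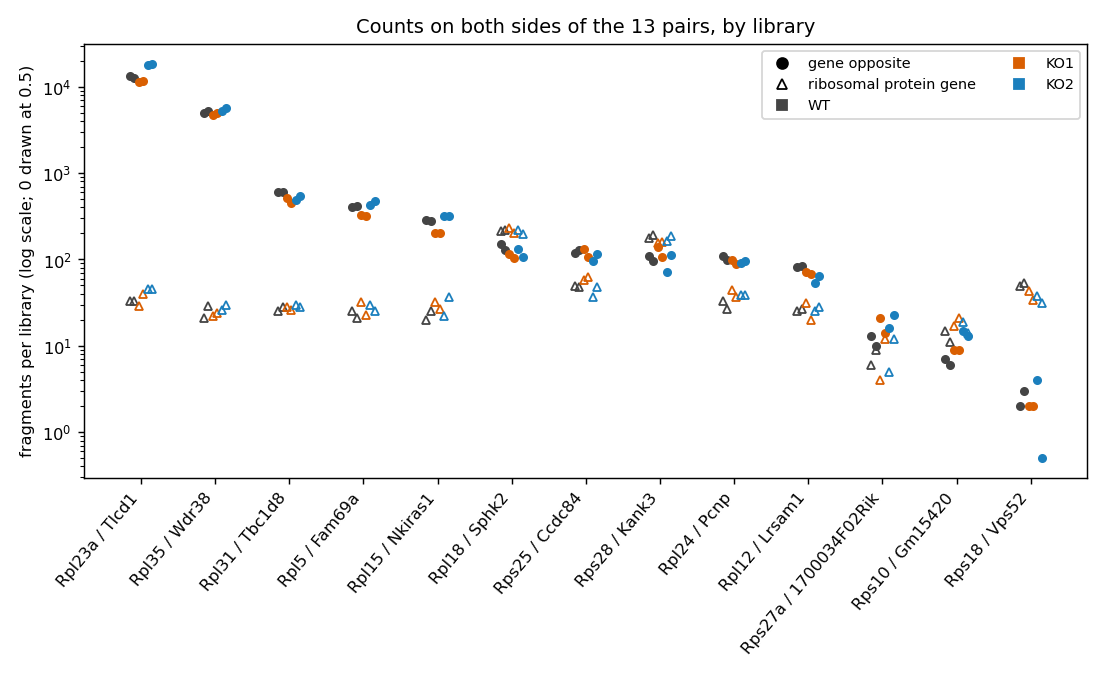
Fragments counted per library (log scale) on the gene opposite (filled circles) and on the ribosomal protein gene (open triangles) of each of the 13 pairs, coloured by group. Tlcd1 and Wdr38 stand highest, the ribosomal protein side of most pairs lies between 20 and 60 counts, and in 4 pairs the triangles lie above the circles.

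The other 8 pairs held fewer counts. Sphk2, a sphingosine kinase gene head to head with Rpl18, had 104 to 151 counts and Rpl18 had 195 to 231, with 63.5% of the pair on the Rpl18 side. Sphk2 also lies opposite Dbp. Kank3, which lies opposite Rps28 and is the only one whose shared bases are all coding, had 71 to 138 counts against 157 to 190 on Rps28. Ccdc84 (opposite Rps25) had 96 to 132 counts, Pcnp (opposite Rpl24) 88 to 111, and the ubiquitin ligase gene Lrsam1 (opposite Rpl12) 53 to 84. The lowest were 1700034F02Rik, opposite the ubiquitin fusion gene Rps27a, with 10 to 23 counts, and Gm15420, opposite Rps10, with 6 to 15. Vps52, of a vesicle tethering complex, had 0 to 4 counts and was not tested, while Rps18 opposite it had 31 to 54, so nearly the whole of that pair was on the ribosomal protein side. Divided by the kb of shared exon, the mean whole-gene count per library ranged from 28106 (Tlcd1) and 6252 (Wdr38) down to 13.9 (Vps52). Only 10.1% of the Tlcd1 exon bases and 28.6% of those of Wdr38 are shared, so these values are not densities of the overlap. Tlcd1 and Wdr38 hold most of the counts of the genes opposite.

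With both lines together against WT, the quasi-likelihood test of edgeR, with Benjamini-Hochberg adjustment over all 5034 genes tested, called 1 of the 12 tested genes opposite, at an adjusted p under 0.05, beside 6.62% of all genes tested (3.89% lower, 2.72% higher) and 10.8% of those with an opposite gene. Tbc1d8 fell by 0.31 on the log2 scale (SE 0.07, adjusted p 0.00224), from 523 ± 8.19 CPM in WT (SD, n = 2) to 397 ± 28.8 in KO1 and 445 ± 10.6 in KO2. It was lower in 4 of 4 knockout libraries. Where the 4 knockout libraries were fitted as a single group, the change was not called (adjusted p 0.518, edgeR). Tlcd1 was 0.11 ± 0.04 higher in log2 with an adjusted p of 0.0834, from opposite changes in the lines given next. It passed without WT replicate 1 (0.00915) and without KO2 replicate 2 (0.0407), and Sphk2, at -0.33 ± 0.13, passed without KO2 replicate 1 (0.0385, edgeR). The median over the 12 genes was -0.15, beside -0.01 over all genes tested, and 9 of 12 were below 0.

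In KO1 against WT, 4 of 12 genes opposite fell and none rose, beside 9.79% of all genes tested called, 6.34% lower and 3.46% higher. Among tested genes with an opposite gene, 15.5% were called. Tlcd1 fell from 11244 ± 692 CPM to 9505 ± 428, a log2 change of -0.24 ± 0.04 (SE, adjusted p 3.23e-04, edgeR). Nkiras1 fell from 243 ± 6.77 to 167 ± 5.45 CPM, by 0.54 on the log2 scale (SE 0.10, adjusted p 5.86e-04). Tbc1d8 changed by -0.40 ± 0.08 (5.86e-04), and Fam69a by -0.40 ± 0.09 (0.00191), from 352 ± 2.6 to 267 ± 3.95 CPM. Each of the 4 was lower in both KO1 libraries than in both WT libraries. Such a lack of overlap in CPM was found in 10 of the 12 genes opposite and in 51.1% of all genes tested. In KO2 against WT it was 10 of 12 beside 50.6%, and between the lines 7 of 12 beside 58.6%. Wdr38, at -0.13 ± 0.05, missed the threshold (adjusted p 0.0709). The Tlcd1 call was lost without KO1 replicate 1 (adjusted p 0.0575), Wdr38 passed without KO1 replicate 2 (0.0387), and Sphk2, at -0.42 ± 0.15, passed without WT replicate 2 (0.0395) or either KO2 library (0.0475 and 0.0447, all edgeR).

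In KO2 against WT, 1 of 12 genes opposite rose and none fell, beside 8.98% of all genes tested called, 5.01% higher and 3.97% lower. Among tested genes with an opposite gene, 13.9% were called. Tlcd1 rose to 15509 ± 352 CPM, a log2 change of 0.46 ± 0.04 (adjusted p 5.48e-09, edgeR), and stood above WT in 2 of 2 libraries. The median over the 560 tested genes of chromosome 11, where Tlcd1 lies, was 0.40 in the same comparison, against -0.01 over all genes tested. Its part in the Tlcd1 value was not tested. In KO1 that chromosome median was 0.06, while Tlcd1 was lower. Tbc1d8 (-0.23 ± 0.08, adjusted p 0.0538) and Lrsam1 (-0.51 ± 0.18, 0.0719, edgeR) missed the threshold, and both passed it with a minimum count of 30, at 0.0273 and 0.0374.

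**Figure D2:**
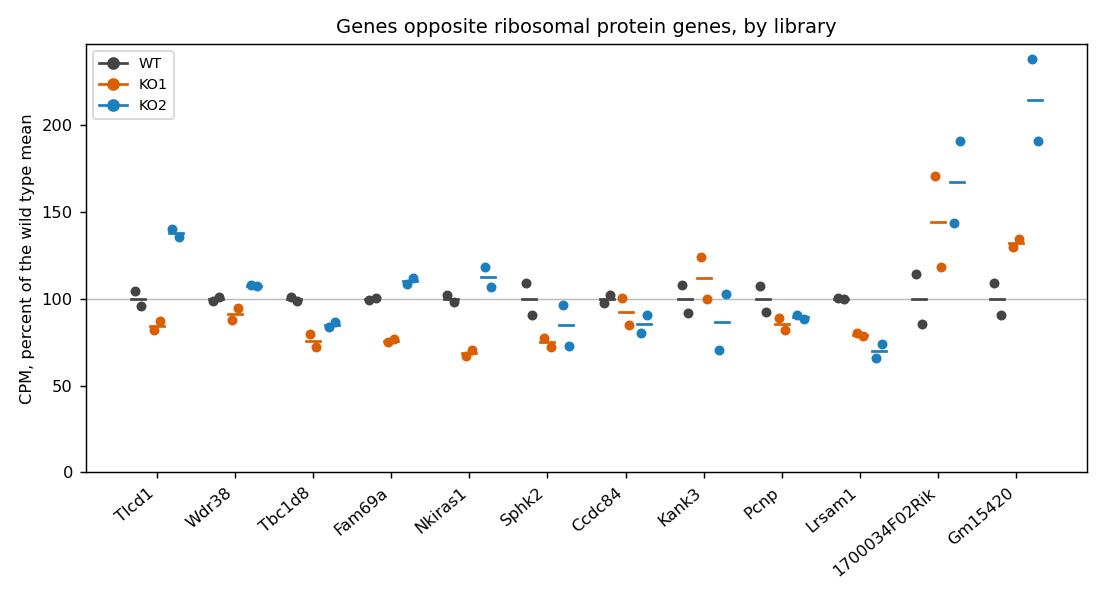
CPM of the 12 tested genes opposite ribosomal protein genes in each library, as a percent of the WT mean; points are libraries and bars are group means of 2. Tlcd1, Wdr38, Fam69a and Nkiras1 lie below 100 in KO1 and above it in KO2, and Tbc1d8 lies below it in both.

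Between the lines, 4 of 12 genes opposite were lower in KO1 than in KO2 and none was higher. Beside this, 19.3% of all genes tested were called, 11.4% lower and 7.93% higher, and 27.5% of those with an opposite gene. The log2 differences were -0.71 ± 0.04 for Tlcd1 (adjusted p 7.34e-13), -0.71 ± 0.10 for Nkiras1 (4.94e-06), -0.54 ± 0.08 for Fam69a (1.70e-05) and -0.24 ± 0.05 for Wdr38 (3.26e-04, edgeR). Wdr38 was at 3992 ± 210 CPM in KO1 and 4699 ± 9.1 in KO2, and its call was lost without KO1 replicate 1 (adjusted p 0.0631). Kank3 was higher in KO1 by 0.36 ± 0.17 (0.14), and passed without KO2 replicate 2 (0.016, edgeR). The chromosome 11 median was -0.31 in this comparison, and those of chromosomes 14, 5 and 2, which hold Nkiras1, Fam69a and Wdr38, were 0.07, 0.05 and 0.12. Over all genes tested the median was 0.02. The part of the chromosomes in these values was not tested.

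On the side of the ribosomal protein genes, 60 of 85 passed the filter on low counts, among them all 13 with a gene opposite. The edgeR test called 0 of 60 with the lines together, 0 in KO1 and 0 in KO2, with 1, 4 and 3 at an unadjusted p under 0.05. DESeq2 also called 0 in each. Beside this, edgeR called 6.62%, 9.79% and 8.98% of all genes tested. Of those 5034 genes, 935, 1100 and 1090 had an unadjusted p under 0.05. The lowest p with the lines together was that of Rps18, a small subunit protein, with 49 and 54 counts in WT, 43 and 34 in KO1, and 38 and 31 in KO2. All 4 knockout libraries lay below WT, at a log2 difference of -0.54 ± 0.20 (adjusted p 0.107, edgeR). The medians over the 60 genes were 0.02, -0.06 and 0.17 for the lines together, KO1 and KO2. Without single libraries they moved to 0.13 (lines together, without WT replicate 2), 0.03 (KO1, without KO1 replicate 1) and 0.07 (KO2, without KO2 replicate 1). Those over all genes tested were -0.01, 0.01 and -0.01. The log2 changes ran from -0.79 ± 0.49 (Rps9) to 0.48 ± 0.37 (Rps10) in KO1 and from -0.67 ± 0.45 (Rps13) to 0.98 ± 0.49 (Rps7) in KO2, all with large standard errors and none called (edgeR).

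Between the lines 3 of the 60 were lower in KO1 and none higher, beside 19.3% of all genes tested, and Rps15 and Rpl32 are described. Rps15, of the small subunit head, had 49 and 60 counts in WT, 44 and 61 in KO1, and 78 and 86 in KO2, and differed by -0.70 ± 0.20 (adjusted p 0.0111, edgeR). Rpl32, of the large subunit, had 30 and 32, 22 and 25, and 41 and 40 counts, and differed by -0.84 ± 0.26 (0.0234, edgeR). In both genes the KO2 libraries were above both KO1 libraries. DESeq2 called neither (adjusted p 0.125 and 0.203) and 0 of the 60 in all, and neither passed without KO1 replicate 1 (0.228 and 0.168, edgeR). Rpl32 was also lost without KO1 replicate 2 (0.0571) or KO2 replicate 1 (0.107, edgeR). Rpl32 lies on chromosome 6, where the median over the 259 genes tested was -0.41 in this comparison. Its part in the Rpl32 value was not tested.

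Of the 60 genes, 47 were lower in KO1 than in KO2, with a median log2 difference of -0.24, while over all 5034 genes tested 2422 were lower and the median was 0.02. Outside chromosomes 6 and 11 it was 40 of 53, with a median of -0.22. Summed over the 85 genes, the level was 2122 ± 98.9 CPM in WT, 2059 ± 126 in KO1 and 2329 ± 141 in KO2 (SD, n = 2), and both KO1 libraries (1970 and 2148 CPM) lay below both KO2 libraries (2429 and 2229). As a percent of all counted fragments the lines overlapped, with 0.208% and 0.215% in KO1 and 0.237% and 0.210% in KO2. Between the lines, 58.6% of all genes tested showed no overlap in CPM. The difference in the summed level was not tested. The 13 genes opposite summed to 17226 ± 680, 14775 ± 578 and 21748 ± 351 CPM. Without Tlcd1 and Wdr38 the other 11 summed to 1614 ± 47.4, 1278 ± 59.8 and 1540 ± 9.74 CPM, so in that sum KO1 was lowest and WT, not KO2, was highest.

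**Figure D3:**
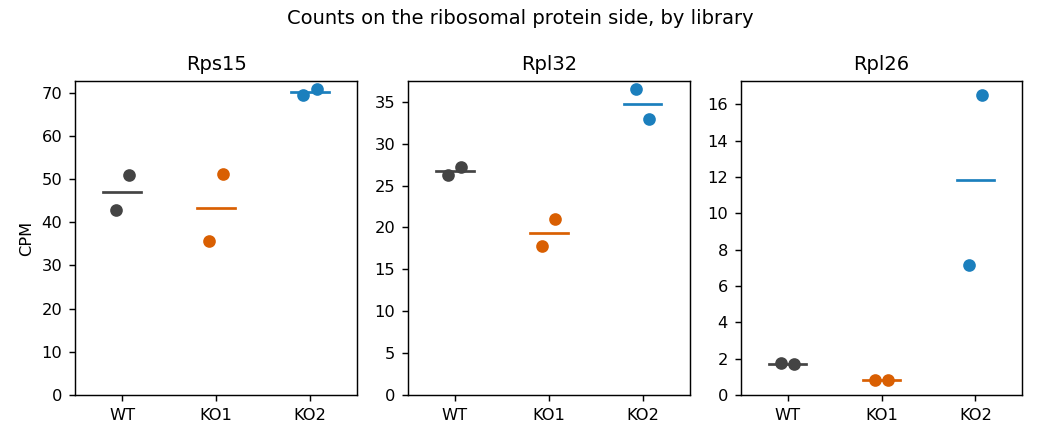
CPM per library (points) and group mean (bars) of Rps15 and Rpl32, called between the lines, and of Rpl26, which was too low to be tested. KO2 is highest in all 3, and the KO1 libraries of Rps15 are spread from below to level with WT.

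Rpl26, a large subunit protein gene on chromosome 11 with no gene opposite, was singled out after its values were seen. It had 2 and 2 counts in WT, 1 and 1 in KO1, and 8 and 20 in KO2. Its KO2 to WT ratio of summed counts was 6.95, from 28 and 4 counts, a value favoured by the choice of the gene. It did not pass the filter on low counts, and no test of it is given, since with these counts it could pass only through KO2, where it was highest.

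The sides of each pair were also compared within 1 model, which asks whether the log2 change of the gene opposite differs from that of the ribosomal protein gene. Of 1516 pairs tested over the genome, edgeR called 1.52% with the lines together, 3.69% in KO1, 3.23% in KO2 and 6.79% between the lines. Of the 13 pairs here it called 0 in each comparison, with 0, 2, 0 and 2 at an unadjusted p under 0.05. No other tool was run on this test. The lowest adjusted p was that of Rps28/Kank3 between the lines, 0.0699, where Kank3 was 0.57 ± 0.21 further up in KO1 than Rps28 in log2. Rpl15/Nkiras1 came next in KO1 against WT, where Nkiras1 had gone 0.86 ± 0.33 in log2 below Rpl15 (adjusted p 0.137, edgeR). Nkiras1 was lower there by the test of single genes, while Rpl15 was at 0.32 ± 0.30 on 20 to 37 counts. With so few counts on the ribosomal protein side, the standard errors of the differences were several times those of Tlcd1 or Wdr38 alone.

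**Figure D4:**
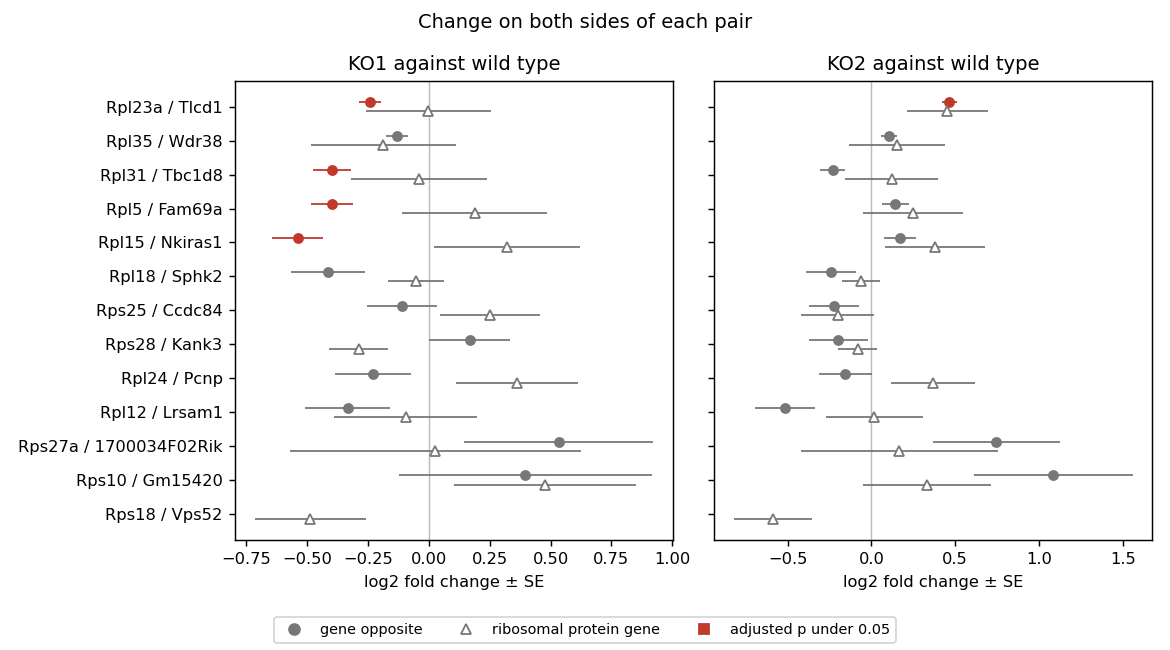
Log2 fold change with its standard error for the gene opposite (circles) and the ribosomal protein gene (triangles) of each pair, in KO1 and KO2 against WT; red marks an adjusted p under 0.05. The calls fall on the circles of Tlcd1, Tbc1d8, Fam69a and Nkiras1 in KO1 and of Tlcd1 in KO2, and Vps52 has no value.

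Of the 72 ribosomal protein genes without a gene opposite, 47 were tested. The most counted were Rps26, a protein at the mRNA exit of the small subunit, with 187 to 237 counts per library, the stalk protein gene Rplp2 with 154 to 206, Rpl27a with 145 to 179, Rpl13 with 113 to 178, Rps2 with 49 to 76 and Rps15 with 44 to 86. Rps26, Rplp2 and Rpl27a were within 0.16 of WT in log2 in both lines, with standard errors of 0.12 to 0.13 and no call (edgeR). Over all 85 genes 20 had fewer than 10 counts in every library. The 72 genes had a median of 10.0 counts per kb of exon and library (mean of the 6 libraries), against 0.103 in the 18902 other coding genes without a gene opposite. In 16 of the 85 a gene on the same strand, mostly a snoRNA gene such as Snora52 in Rplp2, Snora3 in Rpl27a or Snord68 in Rpl13, shares exon bases, and in 5 of the 72 the span of a gene on the other strand reaches into the gene. What these fragments come from cannot be told from the tables.

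The start sites show what several members share that their choice did not use. The bases around each annotated start were taken from RefSeq (build GRCm38.p6, so not comparable by coordinate with mm9). This was done for the 63 ribosomal protein genes that matched by symbol. The transcript strand was searched for an unbroken run of at least 8 C or T. A run counted if it touched the start or came within a few bases of it on either side. Such a run was found in 23 of 63 genes (36.5%), in 5 of 69 genes of mitochondrial ribosomal proteins (7.25%) and in 2789 of 27025 genes in all (10.3%). A match is a description of the letters and shows no control. Shown are examples with a run from the head-to-head or enclosed pairs and the most counted genes without a gene opposite, and Rps15, which has none. Of the same sets, Rpl12, Rpl13 and Rps2 have no such run, and Rps10, Rps18 and Rpl27a have one but are not printed. The run is in capitals, and the last 15 of the 30 bases are transcribed by this annotation. In Rpl18 and Rps26 the run begins after the first transcribed base. The printed sequences lie at chr2:39005117-39005146 (minus, Rpl35), chr14:18270972-18271001 (minus, Rpl15), chr7:45718056-45718085 (plus, Rpl18), chr10:128626492-128626521 (minus, Rps26), chr7:141447636-141447665 (plus, Rplp2) and chr10:80292416-80292445 (plus, Rps15).
Rpl35: cggccccgCCCTTTCCTCTTTCTCTCgaac
Rpl15: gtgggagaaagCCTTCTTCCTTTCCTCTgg
Rpl18: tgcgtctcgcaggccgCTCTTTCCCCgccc
Rps26: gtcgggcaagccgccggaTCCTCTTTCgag
Rplp2: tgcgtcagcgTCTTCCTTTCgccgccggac
Rps15: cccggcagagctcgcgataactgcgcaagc

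Other genes of ribosome and translation biology were read from 8 lists. Of 3 ribosomal proteins outside the naming rule, Gnb2l1 (Rack1), on chromosome 11, rose in KO2 by 1.09 ± 0.30 in log2 (adjusted p 0.0215, edgeR), from 14.7 to 31.2 CPM, and no other call was made. Of the 12 tested elongation factors and other TOP mRNAs edgeR called 0 with the lines together, in KO1, in KO2 and between the lines, with 1, 0, 3 and 3 at an unadjusted p under 0.05. Over all 5034 genes tested, 6.62%, 9.79%, 8.98% and 19.3% were called in the same order. Of them 935, 1100, 1090 and 1608 had an unadjusted p under 0.05. The most counted were Pabpc1, the poly(A) binding protein gene, at 188, 189 and 158 CPM in WT, KO1 and KO2, and the elongation factor gene Eef1a1 at 153, 172 and 192 CPM. Gm9828, opposite the TOP gene Btf3, was at 1666, 1662 and 1673 CPM. Of 21 initiation factors, Eif5b (opposite Rev1) fell in KO2 by 0.37 in log2 (SE 0.09, adjusted p 0.00427, edgeR). Eif5b and Eif4g2 were higher in KO1 than in KO2. These calls stand beside 8.98% of all genes tested in KO2 and 19.3% between the lines. Rfc4, opposite the helicase gene Eif4a2, was the 1 of 5 genes opposite initiation factors called, at -0.57 ± 0.17 in KO2 (0.0306, edgeR). Of all tested genes with an opposite gene, 13.9% were called in KO2.

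Among 20 tested assembly and nucleolar factors, 1 rose in KO1, and 2 rose and 2 fell in KO2, beside 9.79% and 8.98% of all genes tested called. Bysl, needed to mature the small subunit, rose in KO1 by 0.35 ± 0.06 (adjusted p 3.00e-04) and changed by -0.36 ± 0.07 in KO2 (4.14e-04). Nhp2, of the H/ACA snoRNA proteins, and Tsr1, both on chromosome 11, rose in KO2 by 0.81 ± 0.12 (1.19e-05) and 0.87 ± 0.28 (0.0473), and Emg1 changed by -1.04 ± 0.28 (0.0157, edgeR). Bysl lies opposite Ccnd3, so its fragments are read as the Ccnd3 strand. Of 7 genes opposite assembly factors, 3 fell in KO1 and 2 rose in KO2, beside 15.5% and 13.9% of tested genes with an opposite gene called. Srr (opposite Tsr1 and Smg6) went from 2457 CPM in WT to 1964 in KO1 and 3015 in KO2, and 4930556J24Rik (opposite Pes1) from 994 to 828 and 1456, both on chromosome 11 like Tlcd1. 9530027J09Rik (opposite Utp14a, chromosome X) fell in KO1, from 908 to 690 CPM.

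The mitochondrial ribosomal proteins gave the largest list. Of 19 tested by the counted gene, Mrpl19 (-0.83 ± 0.12) and Mrps25 (-0.48 ± 0.06) fell in KO1 (adjusted p 1.62e-05 and 3.78e-06, edgeR), both on chromosome 6, whose median was -0.42 there. Over all 5034 genes tested, 9.79% were called in KO1, 8.98% in KO2 and 19.3% between the lines. Of them 1100 in KO1 and 1090 in KO2 had an unadjusted p under 0.05. Of 19 genes opposite mitochondrial ribosomal protein genes, 2 rose and 7 fell in KO1, 6 rose and 0 fell in KO2, and 2 were higher and 9 lower in KO1 than in KO2. Beside these counts, 15.5%, 13.9% and 27.5% of all tested genes with an opposite gene were called in the same comparisons. Peo1, opposite Mrpl43 on chromosome 19, went from 320 CPM in WT to 235 in KO1 and 398 in KO2, and Gm16755, opposite Mrpl12 on chromosome 11, from 1449 to 1288 and 2046. Many of these genes lie opposite a second gene as well, such as Rrnad1 (opposite Mrpl24 and Isg20l2), which fell in KO1 from 1366 to 1004 CPM. Of the RNA polymerase I genes edgeR called 0 of 3 against WT, with 0 at an unadjusted p under 0.05, and of the 4 genes opposite them Gm16601, opposite Polr1a on chromosome 6, fell in both lines, from 824 to 456 and 689 CPM. The snoRNA host genes gave none to test by the counted gene, and Gm17300, opposite Snhg3 and its snoRNAs, was at 4046 CPM in WT, 4579 in KO1 and 3417 in KO2, called in both lines. Of 9 mTORC1 and MYC genes edgeR called 0 against WT, with 2 in KO1 and 1 in KO2 at an unadjusted p under 0.05, while Larp1, a binding protein of TOP mRNAs, was lower and Mycn higher in KO1 than in KO2 (-0.75 ± 0.24 and 1.32 ± 0.43, adjusted p 0.0246 and 0.0285, edgeR).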

How the data were processed

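RNA was sequenced from 6 libraries, 2 each of WT, KO1 and KO2; the chromatin assays were left out. Values are raw fragment counts per gene, as the authors deposited them without normalization. Per the file headers they were made with featureCounts 2.0.1 over exons with a strand setting of 1, the GENCODE mouse annotation and mm9, with no option to count multi-mapping or multi-gene fragments, so a gene with near-identical pseudogenes can be undercounted. Per the submitters' processing notes, the tools, named without roles, included STAR 2.5.4b and Trim Galore 0.6.4, with featureCounts 2.0.0. The sources used here do not say if the kit marks strand. High counts on genes opposite abundant genes led to the reading of counts as fragments of the other strand.

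Spans and strands of all 37310 genes equalled the annotation, and coordinates are 1-based. Overlaps were found with bedtools 2.31.1. In R 4.3.3, edgeR 4.0.16 was run with filterByExpr (minimum count 10), TMM scaling and a robust quasi-likelihood fit of 3 group means (3 residual degrees of freedom, common biological coefficient of variation 4.46%), with adjusted p under 0.05. The pair test added a side by group term with library blocks, over pairs with at least 10 counts per side. DESeq2 1.42.0, other filters, library sizes and overlaps, and leaving out each library were alternatives. The steps were tested on simulated data.

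Members and lists were chosen with earlier results of these data known. Named are all 13 pairs, called members, the 6 highest ribosomal protein genes without a gene opposite, large changes, and from each other list up to 4 called or otherwise the most abundant genes; ranked changes that rest on few counts were left to ranges, and a few genes beyond the rule are said to be so or serve as examples. A called member is not reported here. The replicate numbers did not pair the samples: correlations of the deviations of same-numbered libraries were 0.01, -0.01 and -0.04.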

Additional observations from a re-analysis of the deposited data

Results flagged for a closer look

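In the members given here the change against WT differed between the lines by a direct test of KO1 against KO2 (edgeR). That test, with adjusted p over all genes tested, called 19.3% of them and 27.5% of those with an opposite gene. The log2 change in KO1 minus that in KO2 was -0.71 for Tlcd1, -0.71 for Nkiras1, -0.54 for Fam69a and -0.24 for Wdr38, all genes opposite a ribosomal protein gene. It was -0.70 for Rps15 and -0.84 for Rpl32 on the ribosomal protein side. Tlcd1, Nkiras1, Fam69a and Wdr38 were below WT in both KO1 libraries and above it in both KO2 libraries. The Wdr38 changes against WT were not called.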

How the results depend on the processing

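No called value changed sign. Among genes opposite, the count with the lines together (1) became 2 with a minimum count of 30, 2 with library sizes without AY036118, 0 where the 4 knockout libraries formed 1 group, and 1 to 2 without single libraries. The KO2 count (1) became 3 with a minimum count of 30 and stayed at 1 without any single library, and the KO1 and between-line counts (4 each) ranged from 3 to 5 without single libraries. On the ribosomal protein side, the KO2 count (0) became 1 with no filter (Rpl26), 1 with a minimum count of 30 (Rps15), and 0 to 2 without single libraries: Rpl17 without WT replicate 2, Rpl26 without either KO1 library or KO2 replicate 1, and Rpl13 and Rpl8 without KO2 replicate 2. Rpl26 enters the filtered fits only through its KO2 counts. The fit with no filter takes it in regardless, but the gene was singled out after its values were seen. Its calls therefore support nothing. The between-line count (3) became 0 with DESeq2 and 1 to 5 without single libraries, Rpl26 and Rpl13 being added without either WT library. With at least 30 counts on each side, 1 pair was called between the lines (adjusted p 0.044, edgeR). The median over tested ribosomal protein genes in KO1, -0.06, was 0.03 with a minimum count of 30 and 0.03 without KO1 replicate 1. The median over tested genes opposite in KO2, -0.02, was -0.18 with a minimum count of 30 and ran from -0.03 to 0.09 without single libraries.

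The replicate numbers did not pair the samples, and with a replicate block the counts of genes opposite stayed at 1, 4, 1 and 4, those of ribosomal protein genes at 0, 0, 0 and 3, and those of pairs at 0. Library sizes without Tlcd1 and Wdr38, an alternative chosen after seeing the data, also gave 0, 0, 0 and 3. Low counts limit the ribosomal protein side, where 20 of 85 genes had fewer than 10 counts in every library. Leaving out 1 library leaves a group of 1, which is assumed to vary like the others.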
